A study of Homo sapiens with 30 samples.

Results

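The 10 genes described here encode the enzymes of myeloid granules and the factors and receptors that go with them. They are *CTSG*, *MPO*, *ELANE*, *AZU1* and *LYZ* (granule proteins), *CEBPA*, *CEBPE* and *SPI1* (transcription factors), *CSF3R* (the receptor for granulocyte colony-stimulating factor) and *FCER1G* (the Fc receptor gamma chain). The 10 genes, of 19775 genes with a probe set of their own on the array, were taken by symbol, and they have 14 probe sets among 54613. For each gene the probe set with the highest mean of the 30 arrays was used, and the other probe sets of *LYZ*, *FCER1G*, *MPO* and *CSF3R* served as a check.

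RNA came from LOUCY, an established cell line of early T cell precursor acute lymphoblastic leukemia (ETP-ALL), and was read on 30 Affymetrix HG U133 Plus 2.0 arrays in 10 groups of 3. The MEF2C line carries a construct that switches on MEF2C, a MADS-box transcription factor, with doxycycline (dox), and it was grown either alone in medium or on one of 2 stromal layers, OP9-GFP and OP9-DL1. OP9 cells are stroma from mouse marrow, and those called OP9-DL1 display the Notch ligand DL1. The ICN line carries a construct for intracellular NOTCH1 (ICN), an active form of the receptor, and the MEF2C and ICN line carries both, and these lines were grown in medium. Each of these 5 settings was profiled without dox (no overexpression) and with dox, by the treatment the labels give for each sample. Dox was given at 0.5 μg/mL in the study's methods and for 24 hours in its description of the MEF2C line. The MEF2C line was a bulk line made by lentiviral transduction and sorting, while the ICN construct and the making of its lines are not described in the sources used here. All groups keep the *MEF2C* gene of LOUCY itself, and the MEF2C of the construct was codon optimized and lacked the β domain. Whether the 3 arrays of a group stand for separate cultures is not stated, and p-values then reflect array-to-array spread alone, which may be technical.

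In granulocyte precursors, azurophil granules are filled first, with myeloperoxidase (*MPO*) and the serine proteases neutrophil elastase (*ELANE*), azurocidin (*AZU1*, which has lost protease activity) and cathepsin G (*CTSG*), while lysozyme (*LYZ*) is found in several granule types and in monocytes. PU.1 (*SPI1*) and C/EBPα (*CEBPA*) open the granule program and C/EBPε (*CEBPE*) acts later, at the stage of the secondary granules. ETP-ALL is a leukemia of very early thymic progenitors and is known for keeping some myeloid and stem cell genes.

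Values are log2 expression, on which 1 unit is a doubling of signal, and array medians lay between 4.75 and 4.84. Arrays of a group correlated with r of 0.99 or more, and no array stood apart. LOUCY expressed T lineage genes as labelled. The *CD3D* probe set lay between 11.1 and 13.1, although *CD2* reached no more than 3.85. Most monocyte genes read low, with *CD14* between 3.41 and 3.93 and *S100A8* between 2.61 and 3.16. Of the 10 measured monocyte markers, 7 lay below the median of all values on every array. The mean of the 10 lay between 3.59 and 3.91 on all arrays. As the study describes it, a single *MEF2C* probe set also covers the cloned sequence and the rest read the transcript of the cell's own gene, but its text does not pair this with identifiers. Of the 3 *MEF2C* probe sets analysed here, 1 rose with dox over the 3 cultures (log2 fold change 0.79 ± 0.12, SE), and the others fell by 1.06 and 1.07. The Notch target *DTX1* rose by 2.31 with dox in the ICN line and by 2.78 in the MEF2C and ICN line. *HES1*, another Notch target, was already at 10.2 in the ICN line and 9.34 in the MEF2C and ICN line without dox, against 5.59 in the MEF2C line.

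By the chosen probe sets, the 10 genes fell into a bright and a dim part. *CTSG* ranged from 5.22 to 8.42, *FCER1G* from 5.16 to 7.74 and *CEBPE* from 5.18 to 6.44, above the array medians on every array. *LYZ* crossed the medians, from 2.84 to 6.03. *CSF3R* stayed next to them, from 4.73 to 5.39. The second probe sets read lower, that of *FCER1G* from 4.47 to 7.62 and that of *LYZ* from 3.44 to 4.91. That of *CSF3R*, from 3.46 to 4.31, lay below the medians on all arrays, as did that of *MPO*, from 2.68 to 3.32. The other 5 genes lay below the medians on all 30 arrays by their chosen probe sets, *CEBPA* from 3.80 to 4.60, *MPO* from 3.29 to 4.27, *SPI1* from 3.08 to 3.82, *AZU1* from 3.00 to 3.84 and *ELANE* from 2.41 to 3.11. Ranked within its array, *ELANE* lay at a median percentile of 16.3, *AZU1* at 27.9, *SPI1* at 28.8 and *MPO* at 34.5. Of *CTSG*, *MPO*, *ELANE* and *AZU1*, the azurophil genes, *CTSG* alone was read above the medians, and signal at the level of the others is partly background, in which small changes are hard to see. Levels of different genes on an array depend on their probes and were not compared further.

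**Figure D1:**
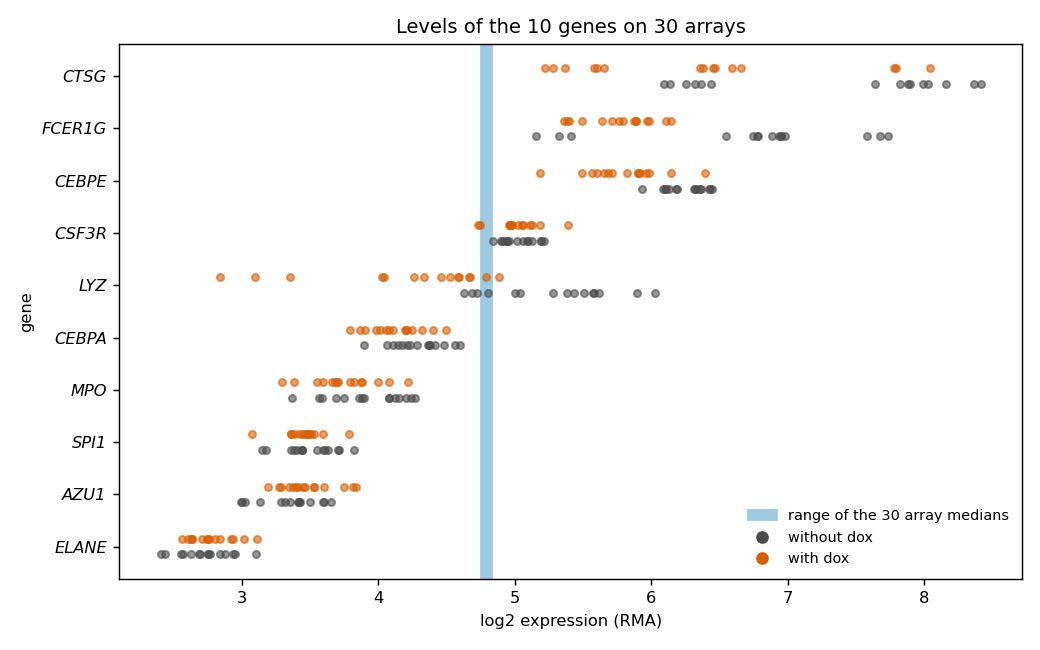
Log2 expression of the 10 genes (vertical axis, ordered by mean) on the 30 arrays, gray without dox and orange with dox; the blue band spans the 30 array medians, 4.75 to 4.84. *CTSG*, *FCER1G* and *CEBPE* lie to the right of the band on every array, and *ELANE*, *AZU1*, *SPI1*, *MPO* and *CEBPA* to the left of it.

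The group means of 3 genes spanned more than 1 unit: *CTSG* 2.92, *LYZ* 2.62 and *FCER1G* 2.36. *CEBPE* spanned 0.90, and the other 6 between 0.29 and 0.51. For comparison, the SD within groups was 0.13 for *CTSG*, 0.25 for *LYZ*, 0.14 for *FCER1G* and 0.17 for *CEBPE*. These 4 carry the results that follow. The arrays measure RNA and not promoter activity. For orientation, the promoters of *CTSG*, *FCER1G* and *CEBPE*, whose chosen probe sets read above the medians on every array, are shown. They are RefSeq windows on GRCh38.p14, 300 bases on the gene's strand from 250 before the transcription start, with capitals marking GAGGAA, a core of PU.1 sites, or its reverse complement TTCCTC.
*CTSG*, chr14:24576201-24576500 (minus strand): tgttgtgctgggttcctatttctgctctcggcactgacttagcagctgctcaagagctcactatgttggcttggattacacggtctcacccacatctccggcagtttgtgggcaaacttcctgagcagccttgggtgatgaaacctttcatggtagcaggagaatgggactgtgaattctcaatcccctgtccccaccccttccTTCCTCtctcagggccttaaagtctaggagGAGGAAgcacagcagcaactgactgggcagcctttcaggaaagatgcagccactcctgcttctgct
*FCER1G*, chr1:161215045-161215344 (plus strand): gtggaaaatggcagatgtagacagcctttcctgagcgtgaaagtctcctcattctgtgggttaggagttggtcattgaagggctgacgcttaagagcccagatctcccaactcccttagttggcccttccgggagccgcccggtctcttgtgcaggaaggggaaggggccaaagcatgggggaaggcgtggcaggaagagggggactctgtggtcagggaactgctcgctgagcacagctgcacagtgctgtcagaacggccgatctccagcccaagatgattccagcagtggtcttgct
*CEBPE*, chr14:23119206-23119505 (minus strand): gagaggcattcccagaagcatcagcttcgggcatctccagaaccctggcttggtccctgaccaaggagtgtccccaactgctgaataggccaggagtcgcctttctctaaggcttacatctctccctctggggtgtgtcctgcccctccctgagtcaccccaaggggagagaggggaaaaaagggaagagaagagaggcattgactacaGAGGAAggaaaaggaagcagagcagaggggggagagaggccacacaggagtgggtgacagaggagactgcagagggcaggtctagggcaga

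Windows were found for 6 of the 10 genes, and *CSF3R* had 2, which makes 7. GAGGAA or its reverse complement stood at 2 places in the window of *CTSG*, starting 46 and 16 bases before the start. It stood once in that of *CEBPE*, 41 bases before the start. A window of *CSF3R* held GAGGAA as well. In the *FCER1G* window these letters were not found. Of all 35116 windows of this length, 27.9% held them. The C/EBP core TTNCNNAA or TTNNGNAA was in the windows of *CTSG*, *AZU1* and *CSF3R* (36.8% of all windows), the RUNX core TGTGGT in those of *FCER1G* and *CSF3R* (13.1%), the MYB core AACGG in that of *FCER1G* (19.7%) and the RBPJ core TGGGAA in those of *CEBPE* and *AZU1* (24%). The MEF2 core was in none of the 7 windows and in 2.73% of all. Both strands were searched, and such matches are descriptions of letters and not binding sites.

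With MEF2C induction, *CTSG*, *LYZ* and *FCER1G* fell in all 3 cultures. Over the 9 arrays with dox and the 9 without, 4 of the 10 genes fell, *FCER1G*, *LYZ*, *CEBPE* and *CTSG*, and 0 rose (limma, Benjamini-Hochberg adjusted p under 0.05 over all probe sets). Among all 19775 genes, 3.79% fell and 3.4% rose by this rule. The median log2 fold change was -0.21 over the 10 genes and -0.01 over all genes. The 10 genes were chosen with earlier results of these data known, so the shares and medians describe and do not test them. In bulk RNA, fewer cells that express a gene and less RNA per cell cannot be told apart.

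*FCER1G* encodes the signaling subunit that Fc receptors for IgE and IgG share. Its 9 arrays without dox lay between 6.55 and 6.98 (median 6.89) and its 9 arrays with dox between 5.76 and 6.15 (median 5.89). The ranges did not overlap. The fall was 0.91 on the log2 scale (-0.91 ± 0.07, SE, adjusted p = 7.98e-09), to 0.534 times the level. The second probe set fell by 1.04 (adjusted p = 3.19e-08). *LYZ* lay between 5.04 and 6.03 (median 5.57) without dox and between 4.27 and 4.88 (median 4.59) with dox. Again all arrays with dox lay below all without. The log2 fold change was -0.97 ± 0.11 (adjusted p = 3.82e-06), and that of the dimmer probe set -0.65 ± 0.11 (adjusted p = 4.72e-04).

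*CTSG* changed as much, but its level depended on the culture. The arrays without dox ran from 6.09 to 8.03 (median 6.37) and those with dox from 5.22 to 6.45 (median 5.60), and the 2 ranges overlapped. Within each culture, every one of the 9 arrays with dox lay below the mean without dox. The pooled log2 fold change was -1.07 ± 0.29 (adjusted p = 0.0345). With culture as a covariate the adjusted p was 4.25e-07, and without replicate 1, 2 or 3 it was 0.189, 0.165 and 0.164. The pooled call was also lost without the arrays on OP9-GFP (0.0912) or on OP9-DL1 (0.171). *CEBPE* fell by 0.34 (-0.34 ± 0.08, adjusted p = 0.0129), from a median of 6.32 to 5.92. One array with dox, at 6.39, reached into the range of 6.11 to 6.44 without dox. This call was lost without replicate 2 (adjusted p = 0.164), without replicate 3 (0.141), without OP9-GFP (0.0764) and without OP9-DL1 (0.231).

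*CEBPA* (-0.20 ± 0.09), *SPI1* (-0.18 ± 0.07), *MPO* (-0.22 ± 0.12), *CSF3R* (-0.05 ± 0.05), *AZU1* (0.13 ± 0.10) and *ELANE* (0.01 ± 0.08) did not pass, with adjusted p between 0.139 and 0.984. Of these, *CEBPA* and *SPI1* had an unadjusted p under 0.05. The second probe sets of *MPO* (-0.22 ± 0.08, adjusted p = 0.118) and *CSF3R* (-0.09 ± 0.09, adjusted p = 0.684) did not pass either.

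**Figure D2:**
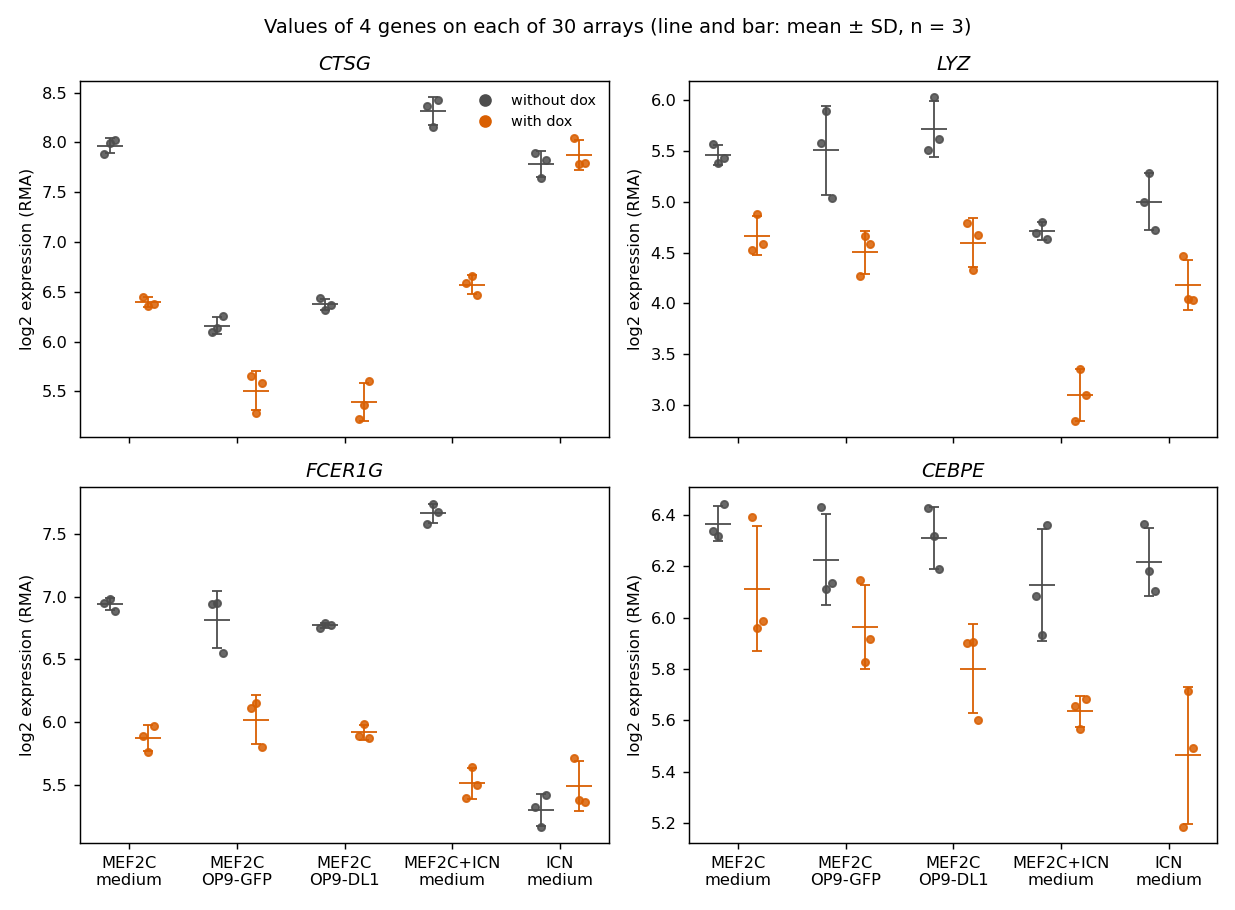
Log2 expression of *CTSG*, *LYZ*, *FCER1G* and *CEBPE* (vertical axes, each with its own scale) on every array in the 5 settings (horizontal axis), gray without dox and orange with dox, with the mean and SD of 3 arrays. By the chosen probe sets, *CTSG* and *FCER1G* drop with dox in the 4 settings with a MEF2C construct and not in the ICN line. There *CTSG* was at 7.79 without and 7.87 with dox and *FCER1G* at 5.30 and 5.49.

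The cultures were then taken one by one, in the model over all 30 arrays. In medium, *CTSG* stood at 7.88, 7.99 and 8.03 without dox and at 6.45, 6.36 and 6.38 with dox. This is a wide gap next to the SDs of 0.08 and 0.05, and the log2 fold change was -1.57 ± 0.10 (adjusted p = 3.63e-11), to 0.337 times the level. On OP9-GFP it stood at 6.09, 6.14 and 6.25 without dox and at 5.66, 5.28 and 5.58 with dox (-0.65 ± 0.10, adjusted p = 1.10e-04). On OP9-DL1 it stood at 6.44, 6.32 and 6.37 without dox and at 5.22, 5.37 and 5.60 with dox (-0.98 ± 0.10, adjusted p = 2.72e-07). The groups with and without dox did not overlap in any of the 3 cultures.

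*FCER1G* fell by 1.07 in medium, from 6.95, 6.98 and 6.89 to 5.89, 5.76 and 5.97. On OP9-GFP it fell by 0.79, from 6.94, 6.95 and 6.55 to 6.11, 6.15 and 5.80, and on OP9-DL1 by 0.85, from 6.75, 6.79 and 6.77 to 5.89, 5.99 and 5.87. The groups were apart in each culture, and the adjusted p was 1.13e-07, 1.48e-05 and 5.67e-06. *LYZ* fell by 0.80 in medium (5.57, 5.38 and 5.44 to 4.52, 4.88 and 4.59), by 1.00 on OP9-GFP (5.58, 5.90 and 5.04 to 4.27, 4.66 and 4.58) and by 1.12 on OP9-DL1 (5.51, 6.03 and 5.61 to 4.79, 4.33 and 4.68). Here too the groups did not overlap, with adjusted p of 0.00853, 0.000986 and 0.000308. The call in medium was lost without the first array with dox or the first without (adjusted p = 0.0531 and 0.0503), and that on OP9-GFP where the 2 groups were fitted alone (0.0686).

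The single further calls differed between cultures and were weaker. *SPI1* fell by 0.38 on OP9-GFP (3.6, 3.82 and 3.63 without dox, 3.48, 3.08 and 3.36 with dox, adjusted p = 0.0229), in its dim range, and 5 of 15 alternatives lost that call. It was lost without the second array with dox (adjusted p = 0.186), without the second without dox (0.133) and where the 2 groups were fitted alone (0.237). *CEBPE* fell by 0.51 on OP9-DL1 (adjusted p = 0.028), from 6.43, 6.32 and 6.19 to 5.90, 5.90 and 5.60, and its log2 fold changes of -0.25 in medium and -0.26 on OP9-GFP did not pass (adjusted p = 0.361 and 0.314). The call on OP9-DL1 was lost without array 1 or 2 without dox or array 3 with dox (adjusted p = 0.146, 0.086 and 0.185). For *MPO*, the dimmer probe set fell by 0.44 in medium (adjusted p = 0.00882) and the chosen one, at -0.49 ± 0.20, did not pass (adjusted p = 0.173). So 3 of 10 genes fell in medium (3.58% of all genes), 4 on OP9-GFP (4.58%) and 4 on OP9-DL1 (3.33%).

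Whether the response to MEF2C depended on the culture was tested directly. Between OP9-DL1 and OP9-GFP, 0 of the 10 genes differed in their response (limma, adjusted p under 0.05), 1 of 10 had an unadjusted p under 0.05 (*CTSG*, -0.32 ± 0.15), and 0.131% of all genes were called. The replicate block and the other alternatives gave 0 as well. Against medium, in comparisons chosen after the values were seen, the fall of *CTSG* was smaller on OP9-GFP by 0.92 ± 0.15 (adjusted p = 0.00182), the only one of the 10, with 0.491% of all genes called. On OP9-DL1 it was smaller by 0.59 ± 0.15, which did not pass (adjusted p = 0.0725). Here 0 of 10 passed by limma, 2 had an unadjusted p under 0.05, and 0.769% of all genes were called. *CTSG* passed under 4 alternatives and without the first array with dox on OP9-DL1, with adjusted p between 0.0317 and 0.039.

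Between culture on OP9-GFP and in medium, *CTSG* was the only one of the 10 that passed. Without dox, cells on OP9-GFP had 6.16 ± 0.08 (SD, n = 3) against 7.97 ± 0.08 in medium, a log2 fold change of -1.81 ± 0.10 (SE, adjusted p = 3.55e-12), to 0.286 times the level. The log2 fold change with MEF2C in medium, against the same 3 arrays, was -1.57. With dox the log2 fold change was -0.89 ± 0.10 (adjusted p = 6.23e-07). Many genes differed between these cultures, 11.5% falling and 10.8% rising on OP9-GFP without dox and 13% falling with dox. So 1 fall among 10 is not above the share of all genes. The study's methods name SCF, FLT3L and IL-7 for human cocultures. Which part of the culture goes with the difference was not tested. The mean of 16 stromal markers lay between 4.48 and 4.63 in medium and between 4.51 and 4.62 on OP9-GFP without dox. These are probe sets for human genes, and how far they read RNA of the mouse OP9 cells was not tested. The arrays without dox on OP9-GFP also served in its MEF2C comparison. In the order of the 10 group means, *CTSG* after MEF2C induction in medium (6.40) overlapped with that on OP9-DL1 without dox (6.37), and cells with stroma and MEF2C together were lowest, at 5.51 on OP9-GFP and 5.40 on OP9-DL1, which overlapped.

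No difference of the 10 genes between the stroma with and without the Notch ligand passed the test. Between OP9-DL1 and OP9-GFP, 0 of 10 passed without dox and 0 of 10 with dox (limma), and 0 had an unadjusted p under 0.05, while 1.63% and 1.4% of all genes were called. The alternatives gave 0 calls too. *HES1* did differ between these cultures, at 9.34 on OP9-DL1 and 7.45 on OP9-GFP without dox (limma, adjusted p = 4.11e-12). The other Notch target, *DTX1*, did not pass (0.09 ± 0.18, adjusted p = 0.905). On OP9-GFP without dox, *HES1* was itself 1.86 above its level in medium (limma, adjusted p = 1.31e-12). Without dox the arrays of *CTSG* did not overlap, and the second probe set of *LYZ* had an unadjusted p under 0.05 (0.43 ± 0.15, adjusted p = 0.189). The differences without dox were 0.21 ± 0.10 for *CTSG*, -0.04 ± 0.11 for *FCER1G*, 0.21 ± 0.19 for *LYZ* and 0.09 ± 0.14 for *CEBPE*.

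With ICN induction, *CEBPE* and *LYZ* fell, and *CTSG* and *FCER1G* did not pass. *CEBPE* went from 6.36, 6.18 and 6.10 to 5.18, 5.71 and 5.49, with no overlap (-0.75 ± 0.14, adjusted p = 2.73e-04). *LYZ* went from 5.0, 5.28 and 4.72 to 4.46, 4.04 and 4.03, with no overlap (-0.82 ± 0.19, adjusted p = 0.0035). Its second probe set did not pass (-0.43 ± 0.15, adjusted p = 0.0568). *CTSG* stood at 7.89, 7.64 and 7.82 without dox and at 8.04, 7.78 and 7.80 with dox (0.09 ± 0.10, adjusted p = 0.694). *FCER1G*, at 5.32, 5.16 and 5.41 without dox, stood at 5.72, 5.38 and 5.36 with dox (0.19 ± 0.11, adjusted p = 0.327). The second probe set of *FCER1G* moved the other way, from a mean of 4.91 to 4.65, and did not pass either. So 2 of 10 fell and 0 rose, where 9.42% of all genes fell and 6.44% rose. Called or not, 3 of the 10 had groups that did not overlap. The share of all genes with groups apart is not given here, so this count is not read as a result about the 10.

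With MEF2C and ICN induced together, *FCER1G*, *CTSG*, *LYZ* and *CEBPE* fell, 4 of 10, where 10.9% of all genes fell and 5.84% rose. *FCER1G* went from 7.58, 7.74 and 7.67 to 5.40, 5.64 and 5.49, a fall to 0.225 times the level and the widest of the 10 genes in any induction (-2.15 ± 0.11, adjusted p = 3.55e-14). *CTSG* went from 8.37, 8.16 and 8.42 to 6.59, 6.66 and 6.47 (-1.74 ± 0.10, adjusted p = 9.03e-13). *LYZ* went from 4.69, 4.81 and 4.63 to 2.84, 3.35 and 3.10 (-1.61 ± 0.19, adjusted p = 3.89e-07), its lowest level in the series. The second probe set of *LYZ* moved less, from a mean of 4.08 to 3.54. *CEBPE* went from 6.09, 5.93 and 6.36 to 5.66, 5.57 and 5.68 (-0.49 ± 0.14, adjusted p = 0.0148). The arrays with and without dox were apart for each of the 4, and for 5 of the 10 genes in all. The share of all genes that were apart is not given here. The *CEBPE* call was lost without the second array with dox or the last without (adjusted p = 0.0614 and 0.124).

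**Figure D3:**
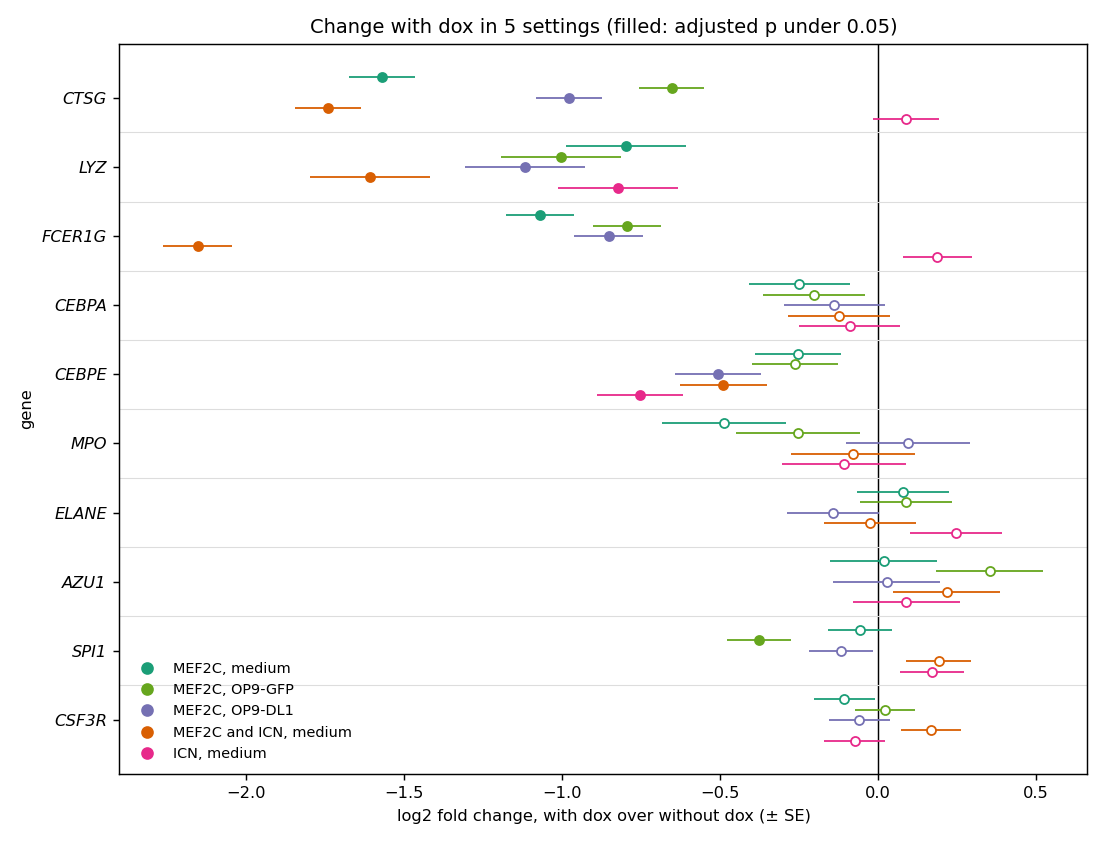
Log2 fold change with dox over without (horizontal axis, ± SE) of the 10 genes in the 5 settings (colors), filled where the adjusted p was under 0.05. By the chosen probe sets, *CTSG* and *FCER1G* are at 0.09 and 0.19 with ICN alone. They lie between -0.65 and -2.15 in the 4 settings with MEF2C.

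The difference between responses was tested as well. Against MEF2C induction in medium, the joint induction lowered *FCER1G* further, by 1.08 ± 0.15 on the log2 scale (adjusted p = 1.49e-05), 1 of 10 genes where 10.5% of all genes differed. The difference for *LYZ*, -0.81 ± 0.27, did not pass (adjusted p = 0.0651), and its second probe set gave 0.14 ± 0.21. *CTSG* (-0.17 ± 0.15, adjusted p = 0.583) and *CEBPE* (-0.24 ± 0.19, adjusted p = 0.557) showed no difference past the threshold. The dimmer *MPO* probe set differed by 0.66 (adjusted p = 0.00378), and the chosen one by 0.41 (adjusted p = 0.463). Against ICN induction, the joint induction differed by -2.34 ± 0.15 for *FCER1G* (adjusted p = 2.52e-11) and by -1.83 ± 0.15 for *CTSG* (adjusted p = 1.04e-09), 2 of 10 genes where 10.1% of all genes differed. The differences for *LYZ* (-0.78 ± 0.27) and *CEBPE* (0.26 ± 0.19) did not pass (adjusted p = 0.0783 and 0.503). These tests compare lines that started from different levels.

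Those starting levels differed without dox. *FCER1G* was at 5.30 ± 0.13 (SD, n = 3) in the ICN line against 6.94 ± 0.05 in the MEF2C line (-1.64 ± 0.11, SE, adjusted p = 2.11e-11), the only one of 10 called, where 25.2% of all genes differed. *LYZ* was split, with -0.46 (adjusted p = 0.0883) for the chosen and -0.51 (adjusted p = 0.0134) for the second probe set. In the MEF2C and ICN line *FCER1G* was higher than in the MEF2C line, at 7.66 ± 0.08 (0.72 ± 0.11, adjusted p = 1.75e-05). *CTSG* was also higher there, by 0.35 ± 0.10 (adjusted p = 0.017), and *LYZ* (-0.75 ± 0.19, adjusted p = 0.00475) and *SPI1* (-0.32 ± 0.10, adjusted p = 0.0239) were lower. The *CTSG* call was lost without the first array of the MEF2C line (adjusted p = 0.0797) and without the first or last of the MEF2C and ICN line (0.0685 and 0.0897). The *SPI1* call was lost without the second or last array of the MEF2C line (0.0518 and 0.141) and without the first or second of the MEF2C and ICN line (0.0891 and 0.0897). That is 4 of 10, where 23.9% of all genes differed. The *FCER1G* level of the ICN line thus lay as low without dox as that of the MEF2C and ICN line with dox (5.51 ± 0.12), and the ranges of the 3 lowest groups overlapped in order. *HES1* was 4.61 higher in the ICN line and 3.75 higher in the MEF2C and ICN line than in the MEF2C line, all without dox. Each construct or pair of constructs was studied in 1 line, so construct and line cannot be told apart.

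Ordered by group mean, *CTSG* was highest in the MEF2C and ICN line without dox (8.31 ± 0.14, SD, n = 3), apart from the next, and then came the MEF2C line in medium without dox and the ICN line with and without dox, whose ranges overlapped. The MEF2C and ICN line with dox (6.57 ± 0.10) stood apart from these and from all MEF2C line groups below it. *LYZ* was highest in the MEF2C line without dox on OP9-DL1 (5.72 ± 0.28), on OP9-GFP (5.51 ± 0.44) and in medium (5.46 ± 0.10), which overlapped, and the next 6 groups, from 5.0 to 4.18, each overlapped with its neighbour. *FCER1G* was highest in the MEF2C and ICN line without dox, then in the MEF2C line without dox in the 3 cultures, then in the same with dox, and these 3 tiers did not overlap. For *CEBPE*, every neighbour in the order overlapped with the next, from 6.37 ± 0.07 in the MEF2C line in medium without dox to 5.46 ± 0.27 in the ICN line with dox.

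Genes whose 10 group means followed those of *CTSG*, *LYZ* or *FCER1G* most closely were sought among 2079 other genes with a span over 1 unit. For *CTSG* these were *IL15* (Pearson r = 0.94), *GNPDA1* (0.92) and *TMEM187* (0.91). For *LYZ* they were *YME1L1*, *SRGN* and *TRDV3* (each 0.97). For *FCER1G* they were *SH3RF3*, *ELOVL6* and *FAM131B-AS2* (each 0.86). *IL15* went from 6.66 to 5.92 with MEF2C in medium and from 6.42 to 6.82 with ICN. These r are descriptions over 10 group means from the same arrays. Among the 10 genes themselves, the group means of *LYZ* and *CEBPE* gave r = 0.83, those of *LYZ* and *FCER1G* 0.55, *CTSG* and *FCER1G* 0.23, and *CTSG* and *LYZ* 0.06. The 4 genes thus did not share 1 pattern.

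Other granule genes were described from lists. Of all genes, 3.79% fell and 3.4% rose with MEF2C over the 3 cultures. With ICN 9.42% fell and 6.44% rose, and with both 10.9% fell and 5.84% rose. Of 10 measured azurophil granule genes, 1 fell and 0 rose with MEF2C over the 3 cultures. This was *SRGN* (-0.55 ± 0.06, adjusted p = 4.5e-06), the proteoglycan that packs proteases into granules. Its group mean went from 10.7 to 10.1 in medium. With ICN, *CD63* (-0.59), *SRGN* (-0.45), *CTSC* (-0.38) and *SERPINB1* (-0.34) fell. *CTSC* encodes the protease that activates cathepsin G. In the joint induction *SRGN* fell by 1.4, *CD63* by 0.63, *SERPINB1* by 0.45 and *CTSC* by 0.31, and *RNASE2* rose by 0.37, from 2.68 to 3.05. *PRTN3*, the partner protease of *ELANE*, stayed between 2.38 and 3.15. The list medians were -0.06, -0.01 and -0.08, against -0.01, -0.03 and 0.02 for all genes.

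Of 18 measured genes of the specific granules and the NADPH oxidase, *NCF4*, an oxidase subunit, fell with MEF2C (-0.43 ± 0.10, adjusted p = 0.0111). With ICN, *MMP9*, the gelatinase, rose by 4.43 ± 0.11 (adjusted p = 5.58e-20), from a mean of 6.38 to 10.8, and *MMP25* fell by 0.35. With MEF2C and ICN together *MMP9* stayed at 6.28 and 6.25 (-0.03 ± 0.11), and the difference between these responses was -4.46 ± 0.15 (adjusted p = 2.79e-16). *CYBB*, the catalytic oxidase subunit, fell by 0.53 in the joint induction. *LTF*, *MMP8*, *CEACAM8* and *OLFM4*, genes of the secondary granule, lay between 1.93 and 3.99 on all arrays. The medians of the list were -0.08 with MEF2C, -0.07 with ICN and 0.05 with both.

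Of 21 measured C/EBP family members and myeloid transcription factors, 5 rose and 1 fell with MEF2C. *IRF8*, a factor of monocyte and B cell development, rose by 1.38 ± 0.11 (adjusted p = 4.4e-08), and *TRIB2* (0.82) and *TRIB1* (0.61), whose proteins direct C/EBPα to degradation, rose too. *LYL1*, a basic helix-loop-helix factor, fell by 0.56. With ICN, *IRF8* (1.59), *GFI1* (0.60) and *TRIB2* (0.49) rose, and of 6 that fell the widest were *GFI1B* (-3.56), *TRIB1* (-1.09) and *LYL1* (-0.96). *TRIB1* thus rose with MEF2C and fell with ICN. In the joint induction 5 rose and 8 fell, led by *IRF8* (1.09), *ETV6* (0.53) and *GFI1* (0.44), and by *GFI1B* (-4.45), *LYL1* (-1.55) and *TRIB1* (-1.01). Of all genes, 5.84% rose and 10.9% fell there, 6.44% and 9.42% with ICN, and 3.4% and 3.79% with MEF2C. On OP9-GFP against medium without dox, 7 of 21 rose and 4 fell, with a list median of 0.14 against -0.01 for all genes, of which 10.8% rose and 11.5% fell. The widest rises were *GATA2* (0.51), *ZFPM1* (0.43) and *KLF4* (0.42), and the widest falls *CEBPB* (-1.65), *DDIT3* (-1.34) and *CEBPG* (-0.52), all 3 of the C/EBP family. *CEBPD* lay between 2.32 and 3.22 on all arrays. The list medians were -0.03, -0.07 and -0.04 for MEF2C, ICN and both.

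Of 20 measured Fc receptor and ITAM signaling genes, 3 fell and 1 rose with MEF2C. *LILRA2*, a receptor that signals through the *FCER1G* chain, fell by 1.24 ± 0.09 (adjusted p = 1.7e-08), *HCST*, the adaptor DAP10, by 1.06 ± 0.10 and *FCGR2A* by 0.65 ± 0.10, while the kinase gene *FGR* rose by 0.70 ± 0.12. *FCER1A*, the ligand-binding chain of the IgE receptor and so a partner of *FCER1G*, rose by 4.23 ± 0.14 in medium, from 3.23 to 7.46, by 0.91 on OP9-GFP and by 0.59 on OP9-DL1. Its responses on stroma differed from that in medium by -3.32 and -3.64 (adjusted p = 7.6e-10 and 9.35e-11). In the MEF2C line the partner chains of this receptor thus moved in opposite directions in each culture. *TYROBP*, the other ITAM adaptor of myeloid cells, stayed between 2.70 and 3.48. With ICN, *HCST* (-1.05), *LILRA2* (-0.81) and *BTK* (-0.51) led 5 falls and *FGR* (3.10), *LYN* (0.59) and *CD247* (0.41) led 4 rises. In the joint induction *LILRA2* fell by 3.03, *HCST* by 1.98 and *SYK* by 1.58, the widest of 4 falls, and *FGR* (0.58) and *LAT2* (0.49) rose. The list medians were -0.10, 0.06 and 0.02. Falls and rises over all genes were 3.79% and 3.4% with MEF2C, 9.42% and 6.44% with ICN, and 10.9% and 5.84% with both. *FCER1A* did not pass over the 3 cultures pooled (1.91 ± 0.64, adjusted p = 0.0955).

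Of 19 measured growth factor and surface receptor genes, 0 passed with MEF2C over the 3 cultures (limma), and 2 had an unadjusted p under 0.05. Taken alone, *ITGAM* (CD11b) and *IL1RAP* fell in medium (-0.71 and -0.29) and on OP9-GFP (-0.74 and -0.35), 2 of 19 in each, and 0 of 19 passed on OP9-DL1 (limma), with 3 at an unadjusted p under 0.05. *ITGAM* fell by 1.5 with ICN and *IL6R* by 0.49, and *IL1RAP* rose by 0.58. In the joint induction *IL6R* fell by 0.60 and *STAT3* by 0.20, and *IL1RAP* rose by 0.37. *KIT*, *FLT3* and *CSF2RB* lay between 2.29 and 4.10 on all arrays, as dim as *SPI1*.

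**Figure D4:**
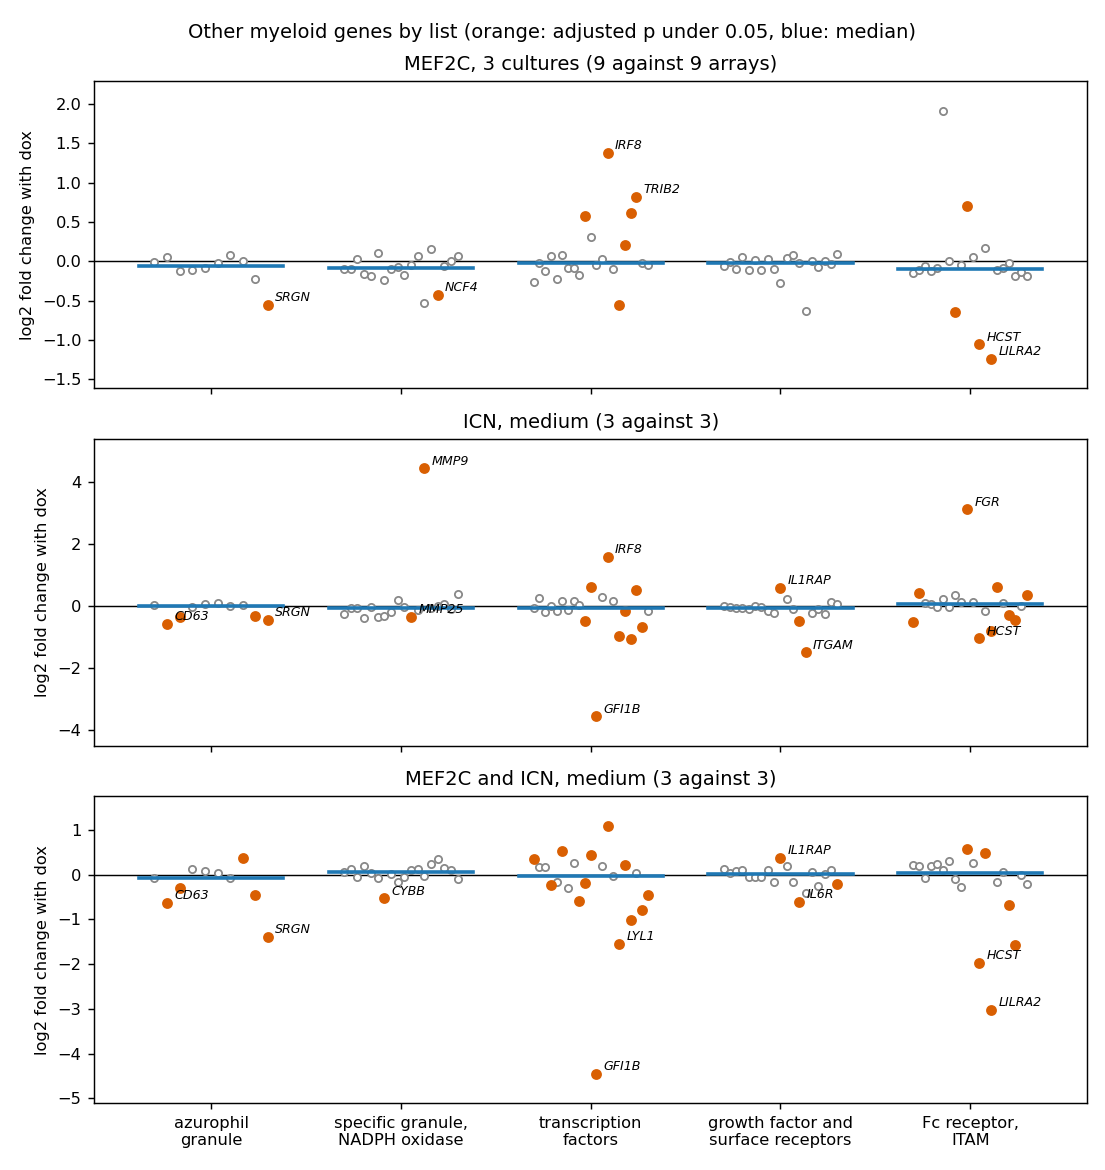
Log2 fold change with dox (vertical axis) of every measured gene of 5 lists (horizontal axis) for MEF2C over the 3 cultures, ICN, and both, orange where the adjusted p was under 0.05 and open gray otherwise, with the list median as a blue line and up to 2 of the widest called genes named. Single genes such as *MMP9* at 4.43 and *GFI1B* at -3.56 with ICN stand out, and every median lies between -0.10 and 0.06.

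Markers of other cell types moved with some of these comparisons, and their part in the results was not tested. With MEF2C over the 3 cultures, 0 of 10 monocyte markers, 0 of 10 mast cell, basophil and eosinophil markers, 1 of 13 NK and cytotoxic markers and 6 of 10 T lineage markers changed (limma), the last all down. Of all genes, 3.79% fell and 3.4% rose in this comparison. At an unadjusted p under 0.05 the monocyte list had 1 gene and the mast cell list 2. In the cultures taken alone, mast cell markers moved both ways. In medium and on OP9-DL1, 2 of 10 rose, *FCER1A* and *CPA3* (0.25 and 0.36), and 1 fell, *HDC* (-1.11 and -1.39). On OP9-GFP *FCER1A* rose, and *HDC* (-1.80) and *GATA2* (-0.22) fell. Of all 19775 genes, 994 rose and 707 fell in medium, 600 and 905 on OP9-GFP, and 508 and 658 on OP9-DL1. Over the 3 cultures, 3 of 16 stromal markers fell, and of 6 measured erythroid markers 1 rose and 1 fell. T lineage markers thus fell in the same comparison over the 3 cultures as *CTSG*, *LYZ* and *FCER1G*. Their mean went from between 7.78 and 7.90 to between 7.41 and 7.51 in medium. With ICN, 6 of 10 T lineage markers rose, 5 of 13 NK and cytotoxic markers rose, led by *GZMA* (1.65), *GZMH* (0.86) and *GZMB* (0.83), and 1 fell, *PRF1* (-0.77). In the same comparison 2 of 6 erythroid markers fell, *HBD* (-2.74) and *HBB* (-0.66), and 1 of 10 mast cell markers, *CPA3* (-0.54). In the joint induction 4 of 10 mast cell, basophil and eosinophil markers fell, among them *CPA3* (-2.87) and *HDC* (-1.93), and the mean of the 10 went from between 4.88 and 4.99 to between 4.32 and 4.47. The shares of all genes were 9.42% falling and 6.44% rising with ICN, and 10.9% and 5.84% in the joint induction.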

How the data were processed

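RNA of 30 LOUCY samples was hybridised to Affymetrix HG U133 Plus 2.0 arrays. The authors deposited log2 values normalised by RMA, which corrects background, quantile normalises over arrays and summarises probes (submitters' notes: affy 1.64.0, R 3.6.3). Such values compress changes of dim probe sets and hide shifts common to all genes. The number of arrays limits the precision.

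Of 54675 probe sets, 62 controls were left out. GEO's platform annotation gave 1 symbol for 41097 probe sets, several for 1801 and none for 11777, and only probe sets with 1 symbol were named. A suffix _s_at marks a probe set that can match several transcripts (those used for *LYZ*, *MPO* and *AZU1*). Linear models were fitted in limma 3.58.1 (R 4.3.3) over 54613 probe sets, with Benjamini-Hochberg adjustment and a threshold of 0.05. MEF2C induction over 3 cultures used 18 arrays with no covariate, and the other 16 comparisons came from 1 model over 30 arrays, of which the responses on OP9-GFP and OP9-DL1 against medium were added after the values were seen. The fits were tested on simulated data with known changes but no difference between cultures or lines, so that setting was not covered.

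The members and lists were chosen with earlier results of these data known. Named besides the 10 genes were up to 3 genes each way per list and comparison among those past the threshold, and the 3 genes most alike in pattern. *PRTN3*, *LTF*, *MMP8*, *CEACAM8*, *OLFM4*, *CEBPD*, *TYROBP*, *KIT*, *FLT3*, *CSF2RB* and *FCER1A*, and *SERPINB1* with ICN and *CTSC* with both, were named after their values were seen. Filtering, normalization, priors, thresholds, fit, covariate, probe set choice and left-out arrays were varied.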

Additional observations from a re-analysis of the deposited data

Results flagged for a closer look

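Among the 9 arrays of the MEF2C line with dox, the lowest *SPI1* value, 3.08 on OP9-GFP, lay far from the next for the spread of the group. Chance alone marks about 1 in 20 groups this way.

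The response of *FCER1G* to MEF2C and ICN together differed from that to MEF2C in medium by -1.08 and from that to ICN by -2.34 on the log2 scale. The response of *CTSG* to both differed from that to ICN by -1.83. With MEF2C alone, its response on OP9-GFP differed from that in medium by 0.92, in a comparison chosen after the values were seen. Each of these differences passed the test of the difference itself.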

How the results depend on the processing

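Over the 17 comparisons, the 10 genes gave 32 calls, and of 531 recomputed values for these calls 474 kept direction and call, 57 kept the direction but lost the call and 0 reversed. Where the number of genes called moved, the cause was not tested. With a mean of 5 or more required, 2 were called for MEF2C on OP9-GFP, 1 for ICN, 2 for the ICN line against the MEF2C line, 2 for the MEF2C and ICN line against the MEF2C line and 1 for the OP9-DL1 response against medium, a filter that leaves out *LYZ* and *SPI1*. For that last comparison, quantile normalization again, a trended and robust prior and the mean of a gene's probe sets each gave 1 too. For the response to both against MEF2C in medium, the trended prior, the study's criteria, the groups alone and the mean of probe sets each gave 2, where 1 was called. The study's criteria gave 2 and a change beyond 1 gave 0 for the MEF2C and ICN line against the MEF2C line. With a change beyond 1, 1 was called for MEF2C over 3 cultures, 1 on OP9-GFP, 1 on OP9-DL1, 0 for ICN, 0 for OP9-GFP against medium with dox and 0 for the response on OP9-GFP against medium. The groups alone gave 2 for OP9-GFP, without *LYZ* and *SPI1*. Over 3 cultures, leaving out OP9-GFP or OP9-DL1 gave 2 each, and the methods' t-test after Benjamini-Hochberg gave 3, without *CTSG* (adjusted p = 0.0776). The mean of probe sets gave 4 for the ICN line.

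Leaving out 1 replicate gave 2 to 3 calls over 3 cultures, 2 to 3 in medium, 3 to 4 on OP9-GFP and on OP9-DL1, 3 to 4 for both constructs, 1 to 2 for both against MEF2C in medium (2 without the second array with dox of the MEF2C and ICN line), 2 to 3 for both against ICN, 1 to 2 for the ICN line (2 without its second array), 2 to 3 for the MEF2C and ICN line and 0 to 1 for OP9-DL1 against medium. It moved no count for ICN (2) or for OP9-GFP against medium (1).

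Replicate numbers did not pair the arrays, since 29 of 135 pairs with the same number had a correlation over 0.1, and 10 of 30 arrays correlated best with their own number. With the replicate block, 2 genes were called for both against MEF2C in medium, and the *CTSG* call over 3 cultures was lost (limma, adjusted p = 0.0555). Probe sets called over 3 cultures went from 2952 to 2718. Their number also fell for the MEF2C response on OP9-DL1 against OP9-GFP, from 81 to 72. In all other comparisons it rose, for MEF2C in medium from 3450 to 3524.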
